A study of Oryza sativa with 4 samples.

Results

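Transcript levels were compared for 7 rice genes of chlorophyll breakdown and leaf senescence: NYC1 (OS01G0227100), NOL (OS03G0654600), SGR (OS09G0532000), NYC3 (OS06G0354700), PAO (OS03G0146400), RCCR1 (OS10G0389200) and NAP (OS03G0327800). They were picked by locus identifier for their known roles. No cut-off on a measured value was used, but earlier results of these data were known when they were chosen. All 7 were found among the 35667 rows of the gene table, each on 1 row, and all 7 belonged to the 23672 rows that the authors had tested. The labels of the study compare flag leaf blades, cut at the widest part of the blade, of wild type TC65 (WT) and of the d1 mutant (allele d1-1), with 2 biological replicates per genotype and 4 libraries in all. TC65 is a japonica rice cultivar. The dwarf mutant d1 carries a lesion in RGA1, which encodes the alpha subunit of the heterotrimeric G protein. The label of d1 does not name its cultivar. Plants of both genotypes stood in a greenhouse with 16 h of light a day at an average of 500 μmol photons per m2 and s. The temperature averaged 30 °C by day, with a midday peak of 35 °C, and 25 °C at night. The labels give the age of the plants as 2 months in one place and as 100 days of growth in another.

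When a leaf senesces, its chlorophyll is taken apart in a fixed order so that the nitrogen of the pigment-binding proteins can be moved to the grain. Chlorophyll b is first turned into chlorophyll a, the magnesium and the phytol tail are removed, the ring is opened, and the coloured product is reduced to colourless catabolites that are stored in the vacuole. Mutants in several of the early steps keep green leaves for longer, which is how some of these rice genes were found, and the NAC transcription factor NAP promotes the programme. The data used here hold transcript levels only, so neither chlorophyll nor the state of senescence was read.

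In flag leaves of d1, the transcripts of SGR, RCCR1 and NAP were lower than in WT, at 50.1%, 62.0% and 42.9% of the WT level. Those of NYC1, NOL, NYC3 and PAO, at 82.0%, 103%, 98.4% and 115% of the WT level, did not pass the authors' test. A gene is termed called here if the q-value is under 0.05 in the authors' deposited table. The q-value is a p-value that the authors adjusted for the testing of many genes. For each of the 7 genes it was smaller than a Benjamini-Hochberg adjustment of the deposited p-values over all tested rows. By the deposited q-value, 3 of the 7 genes were called, all 3 of them lower in d1 and none higher. Of all tested loci, 19.3% were called, 12.1% as lower and 7.24% as higher in d1. The deposited table gives 1 level per genotype in FPKM (fragments scaled to transcript length and to the number of mapped fragments), made by the authors from both libraries, so no value per library and no SD can be given, and the depth behind a level is unknown beyond the roughly 40000000 reads per library stated in the labels.

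**Figure D1:**
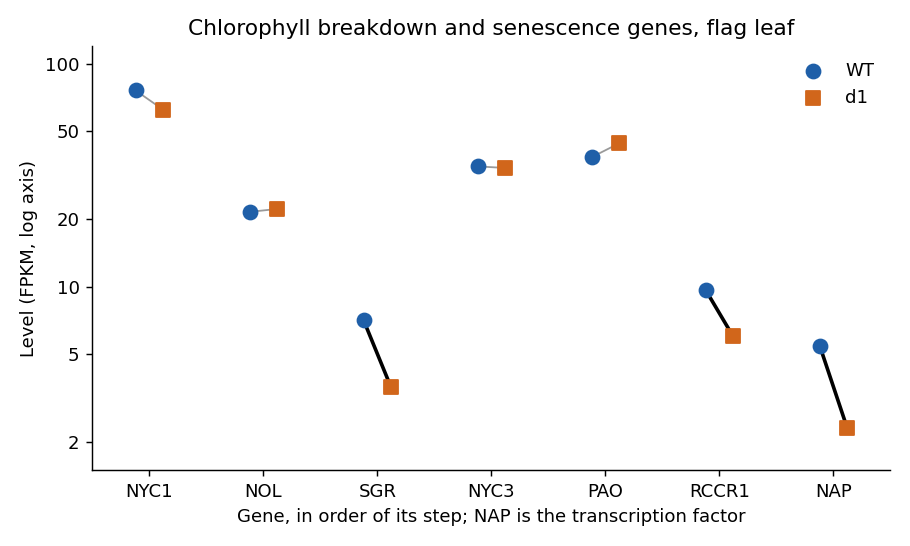
Level of each of the 7 genes in WT (blue circles) and d1 (orange squares) on a log axis in FPKM, 1 value per genotype from 2 libraries, without error bars because none can be computed. Thick black lines join the values of the 3 called genes, SGR (7.06 and 3.54 FPKM), RCCR1 (9.63 and 5.98 FPKM) and NAP (5.41 and 2.32 FPKM), which lie below the other 4 in both genotypes.

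The first step, from chlorophyll b to chlorophyll a, is carried by chlorophyll b reductase, to which rice NYC1 and NOL both contribute as subunits. NYC1, the most abundant of the 7 transcripts, stood at 75.8 FPKM in WT against 62.2 in d1, a log2 ratio (d1 over WT) of -0.29. With p = 0.157 and q = 0.263 in the authors' deposited table, this difference was not called. Its partner NOL stood at 21.6 FPKM in WT against 22.3 in d1. Its log2 ratio of 0.04 was not called either, with q = 0.891 in the authors' deposited table. The level of NYC1 was thus 3.51 times that of NOL in WT and 2.79 times in d1. This change in proportion has no test, because it would need values per library.

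SGR, the stay-green protein, has Arabidopsis and algal relatives that remove magnesium from chlorophyll a. Among the 6 genes that carry a breakdown step, it had the largest fall relative to WT. Its level was 7.06 FPKM in WT against 3.54 in d1. The log2 ratio of -0.997 was called, with p = 0.00265 and q = 0.00740 in the authors' deposited table. It stood at 0.204 of the level of NYC3, the gene of the next step, in WT and at 0.104 in d1. Such a quotient within a genotype does not depend on how the 2 genotypes were scaled to each other. Of all tested loci, 9.86% had a lower log2 ratio than SGR, and of the loci called lower, 52.1% did, which places its fall near the middle of the lower calls.

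NYC3, the relative of the Arabidopsis pheophytinase that cuts off the phytol tail, had the log2 ratio nearest to 0 of the 7 at the deposited scale, although PAO (-0.06) was nearest with equal FPKM sums and NOL (0.01) without the 100 most abundant rows in the sums. Its level was 34.6 FPKM in WT against 34.0 in d1. The log2 ratio of -0.02 had a q of 0.940 in the authors' deposited table. PAO, pheophorbide a oxygenase, opens the ring and so ends the green colour. Its level was 38.0 FPKM in WT against 43.9 in d1. The log2 ratio of 0.21, the highest of the 7, was not called, with q = 0.387 in the authors' deposited table.

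RCCR1, a reductase of the red product that PAO makes, was lower in d1. It stood at 9.63 FPKM in WT against 5.98 in d1. The log2 ratio was -0.69, with p = 0.0110 and q = 0.0267 in the authors' deposited table. This was the weakest of the 3 calls. It was lost when the authors' p-values were adjusted anew by the Benjamini-Hochberg method over all tested rows, with an adjusted p of 0.0688. Over the adjustments tried in this way, the value ranged from 0.0637 to 0.0691. PAO and RCCR1 act one after the other, and the level of PAO was 3.95 times that of RCCR1 in WT and 7.34 times in d1.

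NAP, the senescence transcription factor, has been reported in rice to act on promoters of several chlorophyll breakdown genes. It had the largest fall of the 7 relative to WT. It was the least abundant of them, at 5.41 FPKM in WT against 2.32 in d1, and at the deposited scale the only one to change by at least 2-fold. With equal FPKM sums SGR did so too, at -1.27, as it did with the 100 most abundant rows left out of the sums, at -1.03, whereas NAP was at -0.95 with 1 FPKM added. Its log2 ratio of -1.22 had p = 5e-05, the floor of the p-values in the authors' deposited table, which 1342 tested loci share, with q = 0.000186. Of all tested loci, 7.39% had a lower log2 ratio, and of those called lower, 39.9% did. NAP stood at 0.767 of the SGR level in WT and at 0.656 in d1. Their log2 ratios differ by 0.22, a difference without a test.

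The order of the 7 levels was the same in both genotypes, from NYC1 through PAO, NYC3, NOL, RCCR1 and SGR to NAP. The 3 called genes were the 3 least abundant, at most 9.63 FPKM in WT, whereas the other 4 started at 21.6 FPKM. The range of levels among the 7 therefore widened from 14.0-fold in WT to 26.8-fold in d1. Neighbours in this order cannot be separated by a test without values per library. NYC1 lay above 91.9% of all tested loci in WT and above 90.3% in d1. NAP went from above 41.9% of them to above 27.6%, SGR from 47.6% to 34.8% and RCCR1 from 55.0% to 45.4%.

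The share of lower calls near the levels of SGR, RCCR1 and NAP was close to the 12.1% over all tested loci. Among tested loci whose mean level was within 2-fold of that of SGR (6938 loci), RCCR1 (7442 loci) and NAP (6380 loci), 13.0%, 12.7% and 13.2% were called lower. For the 4 genes that were not called, the same windows gave 11.7% to 14.5%. The authors' signed statistic was -2.17 for SGR, -1.83 for RCCR1 and -2.97 for NAP, against -1.08 for NYC1, 0.17 for NOL, -0.10 for NYC3 and 0.79 for PAO. The log2 ratio divided by this statistic was 0.46 for SGR, 0.38 for RCCR1 and 0.41 for NAP, and lay between 0.24 and 0.27 for the 4 abundant genes. If the statistic is a log2 ratio over its standard error, which the sources used here do not state, these quotients are the errors of the ratios, larger for the 3 genes with low levels.

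**Figure D2:**
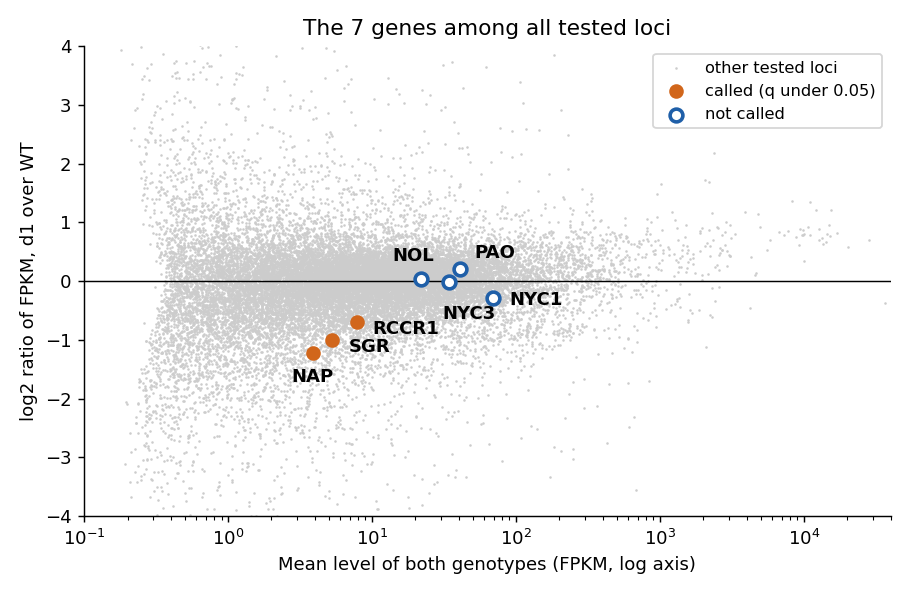
The log2 ratio of FPKM (d1 over WT) against the mean level of both genotypes in FPKM (log axis) for the tested loci in grey, with the 3 called genes as filled orange points and the 4 others as open blue rings. Loci listed at 0 in 1 genotype or outside the axis ranges are not drawn. NAP, SGR and RCCR1 lie at mean levels of 3.87, 5.30 and 7.80 FPKM, and the 4 genes that were not called lie near 0 at 21.9 FPKM and above.

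Taken as a list, the 7 genes had a median log2 ratio of -0.29, against -0.02 over all tested loci, and the ratio was below 0 in 5 of 7 genes, against 51.5% of tested loci. The scale between the genotypes matters for this count. The FPKM columns sum to a larger total in d1, a log2 difference of 0.27, and if both sums are set equal, NOL (-0.23) and PAO (-0.06) also turn below 0. All 7 ratios were then below 0, but so were 75.1% of tested loci, with a median of -0.29 over them and of -0.56 over the 7. Leaving the 100 most abundant rows out of the sums shrank the offset to 0.03, and NOL and PAO were again above 0, at 0.01 and 0.17. SGR, RCCR1 and NAP were below 0 under every scaling and pseudocount tried, with log2 ratios from -1.27 to -0.83, from -0.96 to -0.61 and from -1.49 to -0.95. The values closest to 0 are those with 1 FPKM added to both genotypes, which compresses the ratios of low genes.

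**Figure D3:**
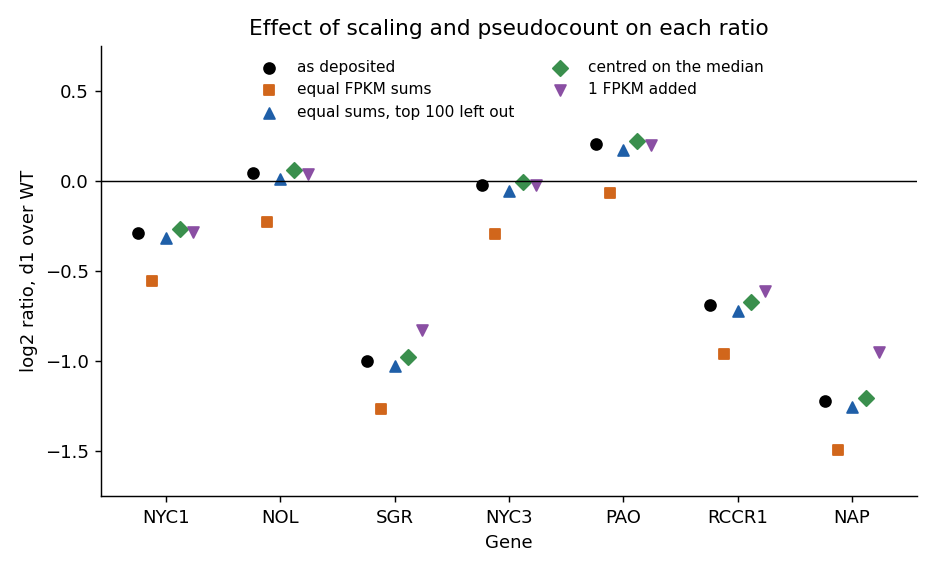
The log2 ratio (d1 over WT) of each gene as deposited and under 3 other scalings and 1 pseudocount, with 1 marker shape per setting. Equal FPKM sums lower every ratio by 0.27 and take NOL and PAO below 0, while SGR, RCCR1 and NAP stay below -0.6 under each setting shown.

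Under stricter rules RCCR1 was lost first and SGR next. At a q-value under 0.01 in the authors' deposited table, SGR and NAP were called, and 7.86% of tested loci were called lower. With the Benjamini-Hochberg adjustment computed anew over all tested rows, SGR and NAP were called, beside 9.17% of tested loci called lower. Their adjusted p-values were then 0.0237 and 0.000882, above the deposited q-values of 0.00740 and 0.000186, so SGR was no longer under 0.01. When a change of at least 2-fold was asked for as well as a q-value under 0.05, NAP was called and SGR, at 1.995-fold, fell just short, beside 6.28% of tested loci.

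Further loci of chlorophyll breakdown and senescence were read beside the 7 genes. A list of 10 loci had been entered from general knowledge, without an annotation to check them against, and 9 of them were found and 7 had been tested. Of these 7, 2 were called higher in d1, 1 was called lower and 4 did not pass. Over all tested loci, 7.24% were called higher and 12.1% lower. The median log2 ratio of these 7 listed loci was 0.08, against -0.02 over all tested loci. The lower call was lost at a q-value under 0.01 and with the adjustment computed anew, which left 2 higher and 0 lower calls in each case. The 2 that rose were OS04G0692600, from 213 to 379 FPKM with q = 0.000186 in the authors' deposited table, and OS07G0558500, from 618 to 1079 FPKM with q = 0.00332 there. The one that fell was OS10G0419600, from 64.5 to 47.0 FPKM, and the authors' deposited table gives q = 0.0449. These loci had been entered as SGR-like (OS04G0692600), NYC4 (OS07G0558500) and chlorophyllase (OS10G0419600), names that were not checked. Both that rose were more abundant than any of the 7 genes above in either genotype. The 4 that did not pass had log2 ratios from -0.52 to 0.39, and the 2 found without a test were at 0.0753 FPKM or less in both genotypes. One of these 2, OS01G0907600, had been entered as a SAG12-type cysteine protease and was listed at 0 FPKM in WT and in d1.

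The opposite arm, chlorophyll synthesis with the formation of chlorophyll b, was likewise entered from general knowledge and unchecked, as 11 loci, of which 10 had been tested. Of these, 5 were called higher in d1 and 0 lower, and 5 did not pass, against 7.24% of all tested loci called higher and 12.1% lower. The share called higher differed with level. It was 6.08% among tested loci with a mean level within 2-fold of that of NAP, and 11.2% near that of NYC1. With the adjustment computed anew, 3 of the 5 calls were left. The median log2 ratio of the synthesis loci was 0.60 (0.33 if the FPKM sums are equal), against -0.02 (-0.29) over all tested loci. The same median over the 7 breakdown and senescence genes was -0.29 (-0.56 with equal sums). The lists differ in level as well, since the synthesis loci with a test stood at 69.6 to 2122 FPKM in WT and the 7 genes at 5.41 to 75.8 FPKM. No test of the difference between the lists was made.

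**Figure D4:**
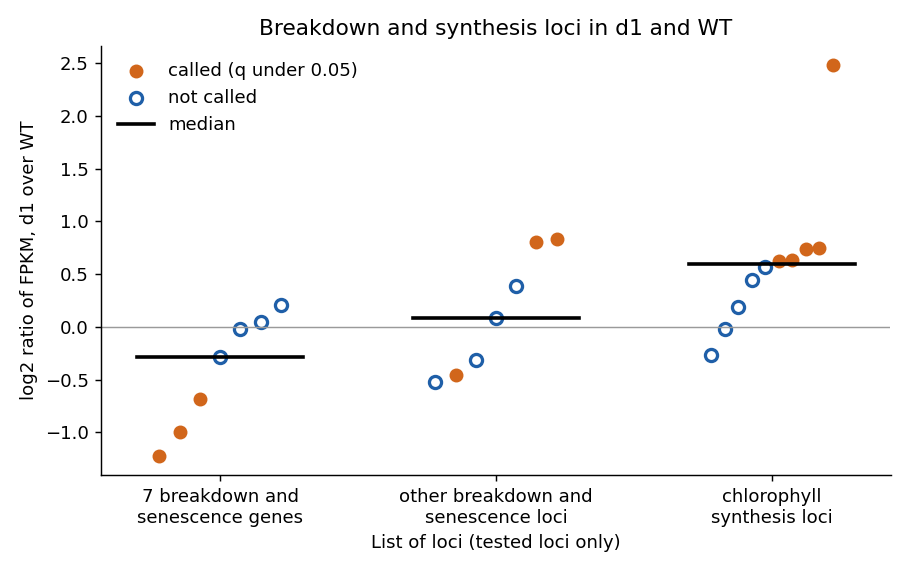
The log2 ratio of FPKM (d1 over WT) of each tested locus in 3 lists, with called loci filled, loci that were not called open, and the median of a list as a black bar. The called loci of the first list lie below 0, those of the synthesis list above 0, and those of the middle list on both sides, with medians of -0.29, 0.60 and 0.08.

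The tissue of the libraries was read from further loci entered from general knowledge. The 6 loci of leaf mesophyll (rubisco small subunits and antenna proteins) stood at 1430 to 21644 FPKM in WT against 3192 to 35243 in d1, and 3 of the 6 were called higher in d1 (2 with the adjustment computed anew), against 7.24% of all tested loci. The 3 secondary wall loci, which mark xylem and fibre cells, summed to 13.0 FPKM in WT against 4.17 in d1. Most of this sum came from OS01G0750300, at 8.47 FPKM in WT against 1.93 in d1. The others were low, at 2.95 against 1.65 FPKM and at 1.54 against 0.599 FPKM. All 3 were called lower (1, OS01G0750300, with the adjustment computed anew), against 12.1% of all tested loci. A root locus was listed at 0 in both genotypes, and a shoot meristem locus at 0.0981 FPKM in WT and 0 in d1. Fewer cells of a type and less RNA per cell cannot be told apart in RNA from mixed blade tissue. The part of these differences in the results for SGR, RCCR1 and NAP was not tested. RGA1 itself (OS05G0333200) stood at 20.7 FPKM in WT against 17.3 in d1 and was not called, with q = 0.296 in the authors' deposited table, a value over the whole locus that does not show the mutation.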

How the data were processed

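The submitters' processing notes name TopHat2 with Cufflinks and Cuffdiff, besides FastQC and Trimmomatic, and the genome build IRGSP-1.0. No version, parameter or annotation is given in the sources used here. The authors deposited 1 FPKM value per genotype, a signed test statistic (a score), a p-value and a q-value for each locus. The authors' significance mark equalled a q-value under 0.05 in every row. From these values the log2 ratio of d1 over WT was computed without a pseudocount (Python 3.11.15, pandas 2.3.3), and the Benjamini-Hochberg adjustment, tested on simulated data, was recomputed over tested rows.

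All 7 genes are named whatever their test. With 1 value per genotype no other gene was named by likeness of pattern, and tests across libraries, or tests of the difference between genes, could not be run. The genes and lists were chosen with earlier results of these data known. Nothing says that replicates came from separate plants, so p-values may measure only the spread between libraries. Identifiers were matched ignoring case. The table holds no coordinates or names. The symbols of 4 of the 7 genes (NYC1, NOL, SGR and RCCR1) were found in the RefSeq gene table of assembly ASM3414082v1, on the chromosome in the identifier (1, 3, 9 and 10).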

Additional observations from a re-analysis of the deposited data

How the results depend on the processing

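No paired analysis was possible because both libraries of a genotype share 1 deposited value. For the same reason no library was left out and the planned tests on values per library were not run. Of the 3 calls among the 7 genes, 1 was left (NAP) when at least 2-fold was asked for, and 2 (SGR and NAP) at q under 0.01, with the recomputed Benjamini-Hochberg adjustment, with a minimum of 1 FPKM and without repeated identifiers. All of these were lower in d1. The median log2 ratio of the 7 genes, -0.29, became -0.56 with equal FPKM sums, -0.32 with the 100 most abundant rows left out of the sums and -0.27 centred on the median of tested rows. Leaving out 1 gene at a time gave -0.36 without NYC1, -0.49 without NOL, NYC3 or PAO, and -0.15 without SGR, RCCR1 or NAP. Of 35 ratios of single genes under the settings, 2 changed sign (NOL and PAO with equal FPKM sums), neither of a called gene. The settings for the 2 other lists were chosen after seeing the data. At least 2-fold left 0 of the 3 calls on other breakdown loci and 1 of the 5 on synthesis loci, and q under 0.01 and the recomputed adjustment each left 2 (both higher) and 3 of them. No counting error can be set beside the low levels of SGR, RCCR1 and NAP, as the number of mapped reads is unknown.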
